A study of Caenorhabditis elegans with 24 samples.

Results

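FMRFamide-like peptide genes, named flp in Caenorhabditis elegans, encode precursors of short neuropeptides. The 10 genes described here were chosen by name from the 20687 worm genes of the deposited table: flp-1, flp-5, flp-6, flp-9, flp-11, flp-12, flp-13, flp-14, flp-19 and flp-20. The table held 31 flp genes in all, so 21 others served as a comparison. Messenger RNA was measured in whole embryos of the wild-type strain N2 at 8 stages, namely 60, 120 and 180 min, then 225, 270 and 330 min, and last 410 and 500 min after the 4-cell stage. Embryos were obtained by cutting open adults, and each library was made from a pool of 50 embryos, with 3 replicate libraries per stage. CEL-Seq, the assay used, tags and reads the 3′ end of polyadenylated RNA. All groups shared 1 genotype and no treatment, so developmental time was the only variable compared.

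A flp gene is translated into a longer precursor that passes through the secretory pathway. Proprotein convertases cut the precursor at basic residues, a carboxypeptidase trims the ends, and amidating enzymes turn a C-terminal glycine into the amide that ends the active peptide. The peptides are stored in dense core vesicles of neurons, released by a calcium-triggered step and bound by G protein-coupled receptors on other cells.

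Worm counts per library ran from 172620 to 977908 with a median of 423142. The 500 min libraries held 215900, 867941 and 572849 counts for replicates 1, 2 and 3. Levels are given as CPM, counts over the tested genes scaled to a common total that includes a TMM factor for each library, and 1 count was worth 0.889 to 6.08 CPM depending on the library. On that scale 1 count weighed most in 500 min replicate 1. Because only 3′ ends are read, levels are not divided by gene length. The labels do not say whether the 3 replicates came from separate cultures, so p-values measure only the spread between these samples, which may be technical. In whole embryos, fewer cells of a type and less RNA per cell cannot be told apart.

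Of the 10 genes, 3 were on at 500 min, 3 were mixed and 4 stayed near 0, which are classes of level and not of change. A gene was called on in a stage when every library had more than 3 counts, near 0 when none did, and mixed otherwise. At 500 min flp-1, flp-11 and flp-19 were on, flp-5, flp-9 and flp-13 were mixed, and flp-6, flp-12, flp-14 and flp-20 were near 0. In CPM the mixed genes also lay above all their 60 min libraries in every 500 min library, and their changes are given below. For flp-5 and flp-9 replicate 1 had 1 count in both stages, worth 3.11 CPM at 60 min and 6.08 CPM at 500 min. Their separation therefore rests on the scaling. At none of the 7 earlier stages was any of the 10 on. Summed over the 10 genes and the 3 libraries of a stage, counts were 11, 15, 15, 21, 23, 25 and 24 from 60 to 410 min and 374 at 500 min. Of all worm genes 30.3% had more than 3 counts in each 500 min library, a share close to the 3 of 10 found here. Among the 21 other flp genes 9 met that condition and 4 were near 0. Shares of all worm genes that were mixed or near 0, or on at earlier stages, are not given here. The counts of genes in those classes are therefore descriptions only.

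**Figure D1:**
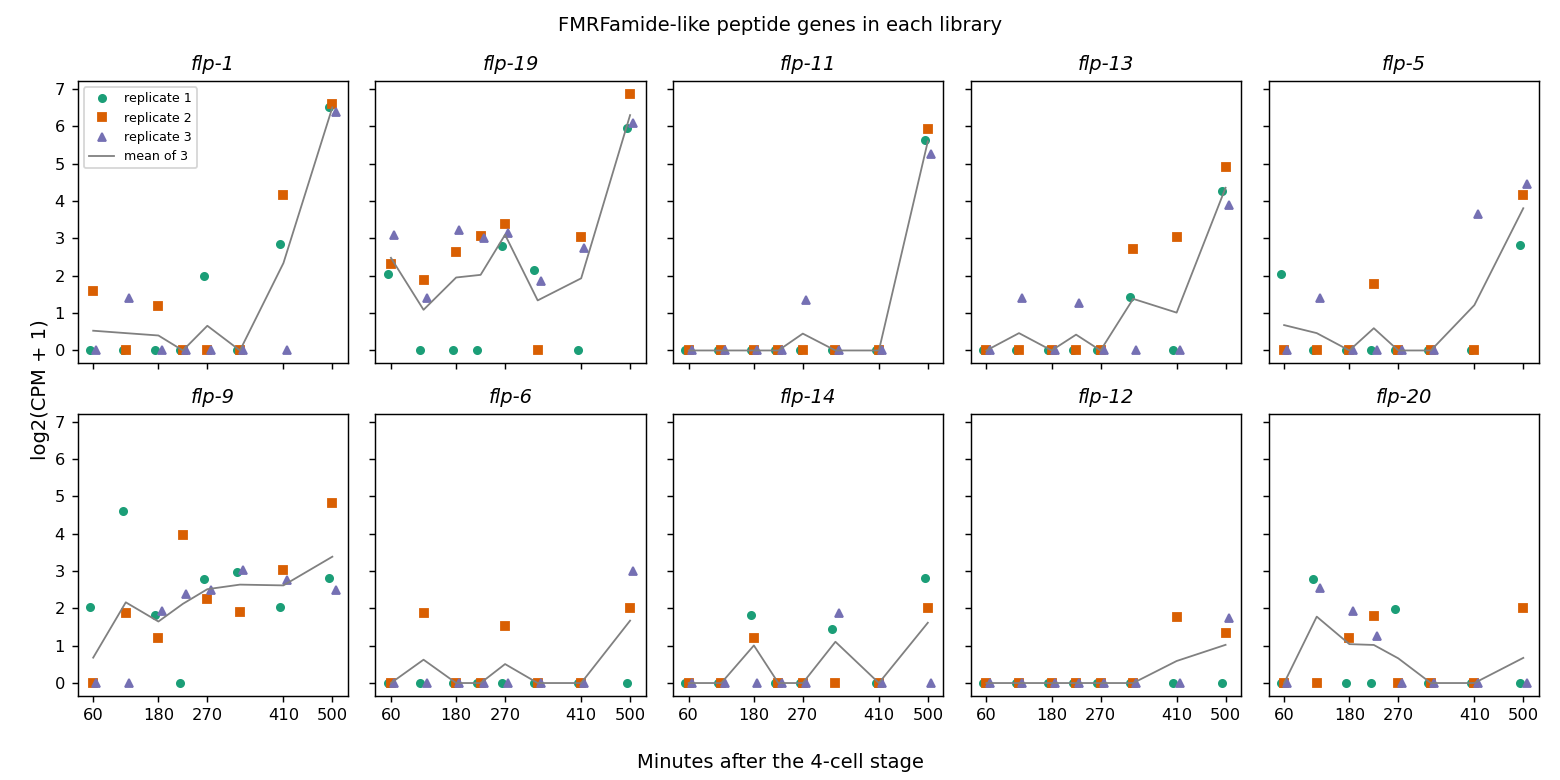
Level of each of the 10 genes as log2(CPM + 1) against minutes after the 4-cell stage, with 1 symbol per library and a line through the mean of the 3 replicates. The genes flp-1, flp-19 and flp-11 stand highest at 500 min, at means of 90.3, 81.4 and 48.5 CPM, while flp-6, flp-14, flp-12 and flp-20 have means of 3.34 CPM or less at that stage.

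The gene flp-1 (F23B2.5, chromosome IV, 9144705 to 9146128, plus strand, WBcel235) encodes peptides released by the AVK interneurons that modulate locomotion. It had 15, 63 and 36 counts in 500 min replicates 1, 2 and 3, equal to 91.2, 96.4 and 83.4 CPM. The counts at 410 min were 2, 7 and 0, and at 60 min they were 0, 1 and 0. All libraries of 500 min lay above every earlier library, and the 3 levels at 500 min lay close together (90.3 ± 6.53 CPM, SD, n = 3). The change from 60 to 500 min was log2 6.6 (SE 0.725, edgeR quasi-likelihood test, Benjamini-Hochberg adjusted p = 9.88e-10). With 1 count at 60 min the ratio of the summed levels was 136, with a 95% counting interval of 23.9 to 5410. From 410 to 500 min the ratio was 9.20 (interval 4.68 to 20.6) and the fitted change log2 3.2 (SE 0.534, edgeR adjusted p = 1.91e-05).

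Of the 10 genes, flp-1 was the only one with an earlier step past the threshold, whether or not genes of low count were filtered out. It had 0 counts in all 330 min libraries and 9 at 410 min, an increase of at least 6.84-fold when 3 counts over the stage stand in for 0 (log2 5.22, SE 1.22, edgeR adjusted p = 0.00124). Higher levels at 410 than at 330 min were called for 18.8% of tested genes. The 410 min replicate 3 library had no flp-1 count, so the stages overlap. Replicate 2 held 7 of the 9 counts, and without 410 min replicate 2 the step did not pass (log2 4.02, edgeR adjusted p = 0.0601; range over alternatives 0.000602 to 0.108).

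The gene flp-11 (K02G10.4, chromosome X, 4677334 to 4678129, minus strand) encodes peptides that the RIS neuron releases to induce sleep. Its counts were 8, 39 and 16 at 500 min, or 48.6, 59.7 and 37.1 CPM. Over the 21 earlier libraries it had a single count, at 270 min in replicate 3. The 500 min libraries held 98.4% of its counts, the highest share of the 10 genes. Against 0 counts at 60 min the level was at least 25-fold higher (fitted log2 7.54, SE 0.937, edgeR adjusted p = 8.42e-08), and against 0 counts at 410 min at least 15.3-fold higher (edgeR adjusted p = 8.33e-06). DESeq2 gave 0.0501 for the last step, just outside the threshold, and 0.00653 for 500 against 60 min.

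The gene flp-19 (M79.4, chromosome X, 10604686 to 10605831, plus strand) is transcribed in sensory neurons that include the carbon dioxide-sensing BAG neurons. It had 10, 76 and 29 counts at 500 min, equal to 60.8, 116 and 67.2 CPM. At 60 min the counts were 1, 2 and 5, and at 410 min 0, 3 and 1. The 500 min libraries lay above all earlier ones, and replicate 2 was the highest of the 3. Unlike flp-1 and flp-11, flp-19 had low counts throughout, in 19 of the 24 libraries, and its stage means before 500 min lay between 1.43 CPM (120 min) and 7.69 CPM (270 min). The ratio of 500 to 60 min was 17.1 (95% counting interval 8.41 to 40.6, log2 3.94, SE 0.529, edgeR adjusted p = 2.62e-08). From 410 to 500 min the ratio was 20.9 (7.94 to 77.9, log2 4.20, SE 0.617, edgeR adjusted p = 1.66e-06), and no earlier step passed.

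These 3 genes were the ones the filter on low counts kept, and they were kept because of their counts at 500 min, so their passing is a condition of the test and adds no support. Among the 8279 tested genes 46.1% were higher at 500 than at 60 min, 14.5% were higher at 500 than at 410 min, and 91.6% changed over the 8 stages. Genes of the lists described further on, including the other flp genes and the nlp genes, were likewise kept because of later stages if they had few counts at 60 min. The counts and medians of these lists over tested genes are therefore descriptions and add no support. The test over 8 stages gave edgeR adjusted p = 2.95e-13 for flp-1, 6.96e-10 for flp-11 and 1.67e-11 for flp-19. At 500 min the levels of flp-1 and flp-19 overlapped between libraries. Every library of flp-19 was above every library of flp-11, which in turn was above every library of flp-13.

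The strand used in counting is not stated, so antisense neighbours bear on these 3 values. Exons of flp-11 overlap tmem-135 and exons of flp-19 overlap abl-1, each on the opposite strand, and the levels of both flp genes are uncertain for that reason. The mean level of tmem-135 was 21 CPM at 330 min, where flp-11 had 0 counts, and 14.6 CPM at 500 min. The kinase gene abl-1 stood at 40.3 CPM at 60 min, 137 CPM at 410 min and 122 CPM at 500 min, so its level was already high at 410 min when flp-19 had a mean of 4.33 CPM. The gene flp-1 lies within the span of daf-10 without sharing exons, and the level of daf-10 was 58.1 CPM at 410 min and fell to 26.8 CPM by 500 min. The part of misassigned reads in the flp values was not tested.

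The gene flp-13 (F33D4.3, chromosome IV, 7696932 to 7698420, minus strand) encodes peptides of the ALA neuron that bring on sleep after cellular stress. It had 3, 19 and 6 counts at 500 min, or 18.2, 29.1 and 13.9 CPM, and 0, 3 and 0 counts at 410 min. All 500 min libraries lay above those of 410 and of 60 min. Against 0 counts at 60 min it was at least 11.1-fold higher. Because its counts fell under the filter, it was tested only in fits that keep more genes. With no filter the change from 60 to 500 min was log2 6.19 (edgeR adjusted p = 3.45e-06), and it still passed when any single library of 60 or 500 min was left out. Against 410 min the ratio was 6.78 (2.09 to 34.8, edgeR adjusted p = 0.0305 with no filter).

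The gene flp-5 (C03G5.7, chromosome X, 8528250 to 8531076, plus strand) encodes peptides that act on the pharynx, the feeding organ. Its counts at 500 min were 1, 11 and 9, equal to 6.08, 16.8 and 20.9 CPM, against 1, 0 and 0 at 60 min. The lowest 500 min library, replicate 1, rests on a single count. The ratio to 60 min was 25 with a counting interval of 4.03 to 1040 (log2 3.92, edgeR adjusted p = 0.000549 with no filter, 0.194 with DESeq2). Against 410 min, where replicate 3 had 2 counts, the stages overlapped and the step did not pass (ratio 7.63, 1.86 to 67.1, edgeR adjusted p = 0.0602 with no filter).

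The gene flp-9 (C36H8.3, chromosome IV, 12754558 to 12757570, minus strand) was detected in 20 of the 24 libraries, more than any other of the 10, yet never at high counts. It had 1, 18 and 2 counts at 500 min, equal to 6.08, 27.6 and 4.64 CPM. Earlier libraries reached 23.5 CPM (120 min replicate 1, 4 counts) and 14.7 CPM (225 min replicate 2, 6 counts). So 500 min replicate 2 was high and the other 500 min libraries were within the range of earlier stages. The change from 60 to 500 min passed with no filter (log2 3.85, edgeR adjusted p = 0.000477) and with DESeq2 (0.0153), but not without 500 min replicate 2 (log2 2.36, edgeR adjusted p = 0.194 with no filter). No step between adjacent stages passed, and 32.8% of its counts came from 500 min.

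The remaining 4 genes gave few counts anywhere. The gene flp-6 (F07D3.2, chromosome V, 9471975 to 9473792, plus strand), which acts in AFD thermosensory neurons among others, had 0, 2 and 3 counts at 500 min and 2 counts in all earlier libraries. With no filter its change from 60 min had an edgeR adjusted p of 0.0453, which became 0.06 to 0.186 when any 1 library of these stages other than 500 min replicate 1 was left out. The gene flp-14 (Y37D8A.15, chromosome III, 12910510 to 12914783, plus strand) had 1, 2 and 0 counts at 500 min and 4 counts at 330 min. The gene flp-12 (C05E11.8, chromosome X, 4591281 to 4592350, minus strand), involved in male turning during mating, had 0, 1 and 1 counts at 500 min and 3 counts in the whole series.

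The gene flp-20 (E01H11.3, chromosome X, 9349276 to 9349894, minus strand), which is made in touch receptor neurons, had 0, 2 and 0 counts at 500 min and 11 in the whole series. Its counts at 120 min were 1, 0 and 3, so 500 min was not its highest stage, and 18.2% of its counts came from 500 min. With no filter, flp-12, flp-14 and flp-20 did not pass against 60 min (edgeR adjusted p = 0.237, 0.126 and 0.226). A stage with 0 counts allows up to 1.45 CPM at 330 min and up to 3.31 CPM at 410 min (3 counts over the 3 libraries, counting error only). Thus 0 counts do not show that a level under these limits was absent. The pooled level at 500 min had a 95% counting interval of 1.30 to 9.34 CPM for flp-6, 0.495 to 7.02 CPM for flp-14, and 0.194 to 5.78 CPM for both flp-12 and flp-20.

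Across the fits that drop fewer genes, more of the 10 were called. With no filter, 7 of 10 were higher at 500 than at 60 min, against 31.7% of the 17522 genes with a count. In the step from 410 to 500 min the no-filter fit called 4 of 10 higher, against 9.72% of genes. DESeq2 called 5 of 10 higher than at 60 min, against 37.7% of the genes to which it gave an adjusted p, and 2 of 10 higher than at 410 min, against 11.7%. Against 60 min it gave no adjusted p to flp-6, flp-12, flp-14 and flp-20, and against 410 min also none to flp-5 and flp-13. Counts out of 10 are therefore not directly comparable with these shares. A filter of over 10 CPM in 3 libraries kept only flp-1, flp-9, flp-11, flp-13 and flp-19 of the 10. All 5 were higher than at 60 min, against 45.6% of the genes this filter kept. Genes kept through their 500 min counts add no support. Over the 8 stages, 6 of 10 changed with no filter, against 61.4% of genes. With the 10 CPM filter all 5 genes kept changed, against 89.3% of genes kept. DESeq2 called 4 of 10, against 67.5% of genes with an adjusted p, and gave none to flp-6 and flp-12. The libraries of 500 and 60 min did not overlap in CPM, with 500 min higher, for 6 of the 10, against 30.9% of all genes with a count. For flp-5 and flp-9 among these, replicate 1 had 1 count in both stages, so their separation rests on the scaling.

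**Figure D2:**
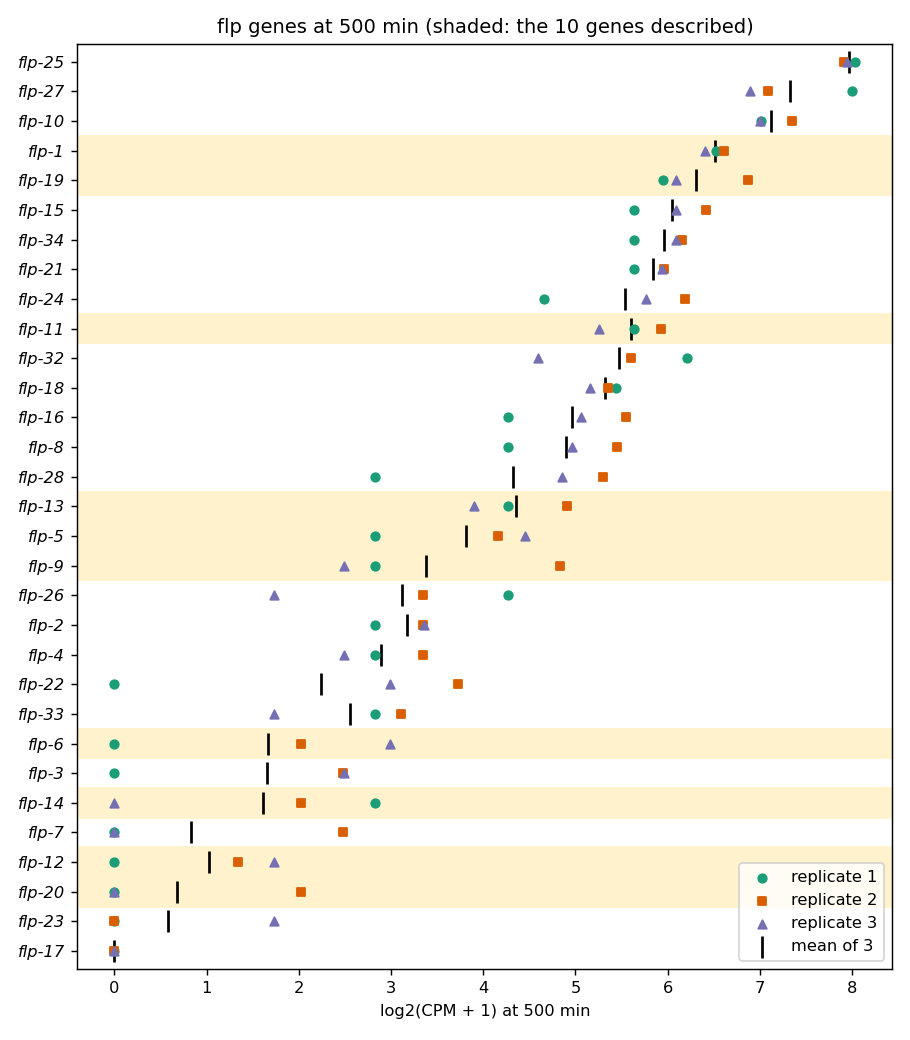
Level of all 31 flp genes at 500 min as log2(CPM + 1), ordered by mean CPM, with 1 symbol per replicate and a black tick for the mean of the 3 plotted values. The shaded genes are the 10 described, which run from flp-1 at 90.3 CPM to flp-20 at 1.02 CPM, while flp-25 at 249 CPM is highest and flp-17 has no count.

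Within the whole flp family at 500 min, flp-1 and flp-19 ranked behind 3 genes, flp-25, flp-27 and flp-10. The gene flp-25 had 43, 157 and 106 counts at 500 min (249 ± 10.9 CPM, SD, n = 3), against 1, 1 and 2 at 60 min. It was already at 77.9 ± 13.2 CPM at 410 min, with 27, 26 and 15 counts. All its 500 min libraries were higher than all its 410 min libraries (log2 1.70, edgeR adjusted p = 6.77e-06), and the change from 60 min was log2 6.39 (edgeR adjusted p = 9.99e-16).

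The gene flp-34, which encodes a peptide related to neuropeptide Y, had 0 counts at 60 min, a mean of 18.9 CPM at 410 min and 62.1 ± 11.8 CPM by 500 min, at least 33-fold higher than at 60 min. The genes flp-18 and flp-21, which encode ligands of the receptor NPR-1, reached 39.0 and 56.7 CPM at 500 min (log2 3.14 and 4.69 against 60 min, edgeR adjusted p = 2.15e-05 and 1.02e-07). The gene flp-27 reached 169 ± 74.8 CPM (log2 3.78, edgeR adjusted p = 5.25e-10).

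Another course in time was seen in flp-15 and flp-10. The gene flp-15 had its highest mean at 270 min, with 70.9, 93.8 and 96.6 CPM, then 30.5 CPM at 410 min and 66.7 CPM at 500 min. The gene flp-10, which has a role in egg-laying control, had 35, 97 and 134 counts at 60 min (168 ± 51.2 CPM), 2.11 CPM at 225 min and 139 ± 20 CPM at 500 min. The first and last stages of flp-10 overlapped (log2 -0.27, edgeR adjusted p = 0.487). Of the 21 other flp genes 7 were tested, of which 6 were higher at 500 than at 60 min, and flp-10 did not pass. The same 6 were also higher at 500 than at 410 min. The median log2 change of the 7 was 4.69, beside 0.473 for all tested genes. With no filter, 16 of the 21 were higher than at 60 min, against 31.7% of genes. Among all tested genes 46.1% were higher than at 60 min and 14.5% higher than at 410 min.

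Genes that process the peptides were higher at 500 min. Of 9 listed processing genes 6 were tested, and all 6 of those were higher than at 60 min, 5 of them also higher than at 410 min. Their median log2 change was 4.22, beside 0.473 over all tested genes. With no filter, 9 of 9 were higher than at 60 min, against 31.7% of genes. Among all tested genes 46.1% were higher than at 60 min and 14.5% higher than at 410 min. The gene egl-21, which encodes the carboxypeptidase that trims the cut peptides, had 31, 308 and 135 counts at 500 min (188, 471 and 313 CPM) and 2, 1 and 4 counts at 60 min, with no overlap (log2 6.08, SE 0.488, edgeR adjusted p = 2.79e-13). The gene sbt-1, which encodes the 7B2-like chaperone of the convertase EGL-3, had 16, 204 and 123 counts at 500 min against 1, 0 and 2 at 60 min (log2 6.75, edgeR adjusted p = 2.28e-13). Its exons overlap grl-14, and its value is uncertain.

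The convertase gene egl-3 itself had a mean of 11.26 ± 4.53 CPM at 60 min, 72.8 ± 17.1 CPM at 410 min and 155 ± 51.4 CPM by 500 min. Between 60 and 500 min this was a change of log2 3.74 (edgeR adjusted p = 1.97e-10). The gene pghm-1, which encodes a peptidylglycine hydroxylating enzyme of the amidation step, had 9, 52 and 39 counts at 500 min and 5, 4 and 0 at 410 min (log2 2.96 for that step, edgeR adjusted p = 7.57e-05). The lyase gene of the same step, pgal-1, had 4, 30 and 16 counts at 500 min and 0 at 410 min but was not kept by the filter, and its exons overlap F21F3.6. A further amidating enzyme gene, pamn-1, had 6, 3 and 7 counts at 500 min and 6, 1 and 3 at 410 min, with overlap, and was not kept by the filter.

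**Figure D3:**
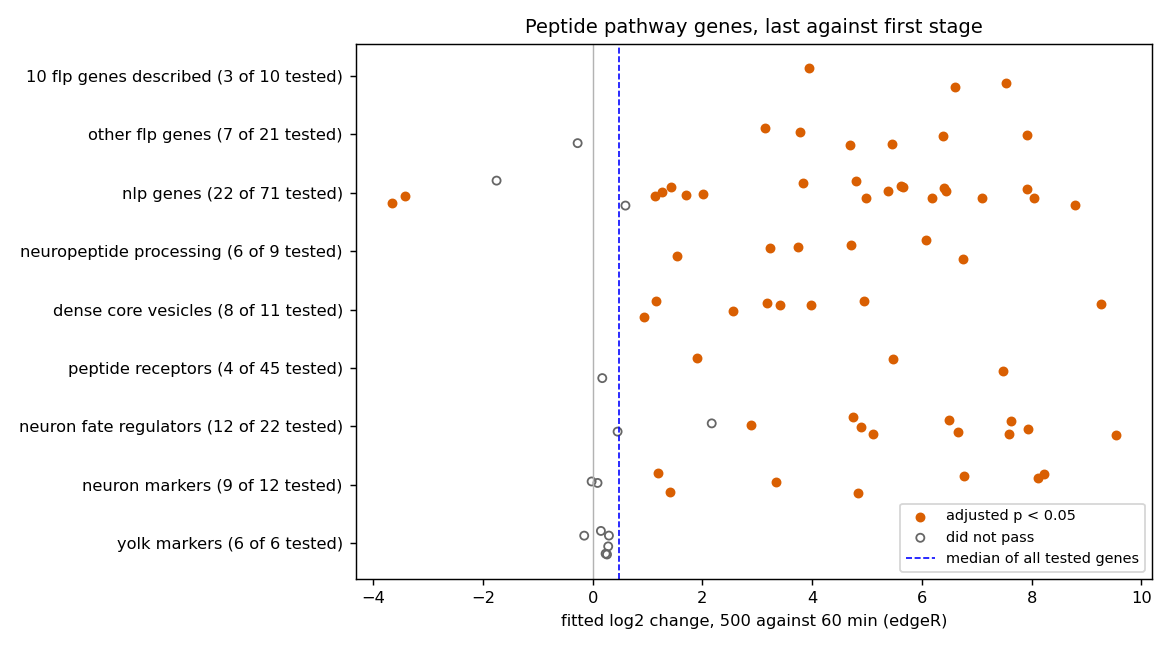
Fitted log2 change from 60 to 500 min for the tested genes of each list, with filled points for genes past the threshold and a dashed line at the median of all tested genes, 0.473. Genes with few counts at 60 min entered the test through later stages, so where they lie against the line is a description only.

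Among dense core vesicle genes 8 of 11 were tested and all 8 of those were higher at 500 than at 60 min (median log2 3.30). Among all tested genes 46.1% were higher. The gene ida-1, a phosphatase-like protein of the vesicle membrane, went from 0 counts at 60 min to 10, 133 and 84 counts at 500 min, at least 90.2-fold higher (edgeR adjusted p = 3.30e-12). From 60 to 500 min ric-19 rose by log2 4.94 to 93.4 ± 18.3 CPM and cccp-1, which acts in vesicle maturation, by log2 3.97 to 118 ± 66.0 CPM. At 410 min ric-19 and cccp-1 already stood at 48.8 and 64.9 CPM. Their change from 410 to 500 min did not pass (edgeR adjusted p = 0.0975 and 0.0723). The calcium-dependent release factor gene unc-31 had 0, 4 and 3 counts at 500 min and 11 counts at 60 min, and was not tested. From 410 to 500 min 3 of the 8 passed, against 14.5% of all tested genes. With no filter, 8 of the 11 were higher than at 60 min, against 31.7% of genes.

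Of 45 listed receptor genes only 4 had enough counts for a test. Of these 3 were higher at 500 min, against 46.1% of all tested genes, frpr-7 being the exception. With no filter, 9 of the 39 that had any count were higher than at 60 min, a smaller share than the 31.7% of all genes. The receptor gene dmsr-1, whose product binds FLP-13 peptides, had 7, 40 and 14 counts at 500 min and 1 count before, in 410 min replicate 2. It was at least 24.2-fold higher than at 60 min (edgeR adjusted p = 1.35e-07). Its ligand gene flp-13 thus reached its highest level in the same stage, at 20.4 ± 7.82 CPM against 45.4 ± 14.6 CPM for dmsr-1. The receptor gene frpr-18 had 6, 32 and 15 counts at 500 min and no more than 1 in any earlier library (log2 5.48 against 60 min, edgeR adjusted p = 6.48e-08). The gene npr-5, which encodes a receptor of FLP-18 peptides, was present at 60 min (17.3 CPM), stood at 7.30 CPM at 410 min and reached 55.7 ± 28.0 CPM at 500 min (log2 1.90 against 60 min, edgeR adjusted p = 0.0017).

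Several regulators of neuron fate had their highest level before 500 min. Of 22 listed regulators 12 were tested, and 10 were higher at 500 than at 60 min, and the median change of the 12 was log2 5.80. With no filter, 15 of 21 were higher, against 31.7% of genes. Among all tested genes 46.1% were higher than at 60 min and 14.5% higher than at 410 min. From 410 to 500 min 1 of the 12 was higher and 1 lower (2 and 2 with the replicate number as a block), and the median change was log2 0.0907, beside 0.0406 for all tested genes. The share of all tested genes called lower is not given. The homeobox gene unc-42, which acts in the AVK neurons that make FLP-1, had 18, 42 and 77 counts at 270 min, its peak at 410 min (302.5 ± 52.5 CPM) and 189 ± 53.7 CPM by 500 min. That last difference did not pass (log2 -0.6, edgeR adjusted p = 0.118) but did with the replicate number as a block (adjusted p = 0.0312). At 270 min flp-1 had 1 count over the 3 libraries. Another listed regulator, fax-1, had 1, 0 and 0 counts at 500 min, where flp-1 was on, and its exons overlap F56E3.6. A relation of unc-42 or fax-1 to the level of flp-1 was not tested. The exons of unc-42 overlap another gene, and its value is uncertain.

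The gene aptf-1, chosen after its values were seen, encodes the AP2 factor required in the RIS neuron for flp-11 transcription. It was not kept by the filter and had a mean of 17.2 ± 6.85 CPM at 410 min, where flp-11 had 0 counts, and 24 ± 7.46 CPM at 500 min, where flp-11 had 48.5 CPM. Its exons overlap dgk-5. The gene ttx-1, which specifies the AFD neurons, was highest at 270 min at 226 CPM and was at 179 CPM at 500 min, while flp-6 stayed near 0. The gene unc-4, a homeobox gene of motor neurons, had 1 count before 500 min and 6, 55 and 26 counts at that stage.

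**Figure D4:**
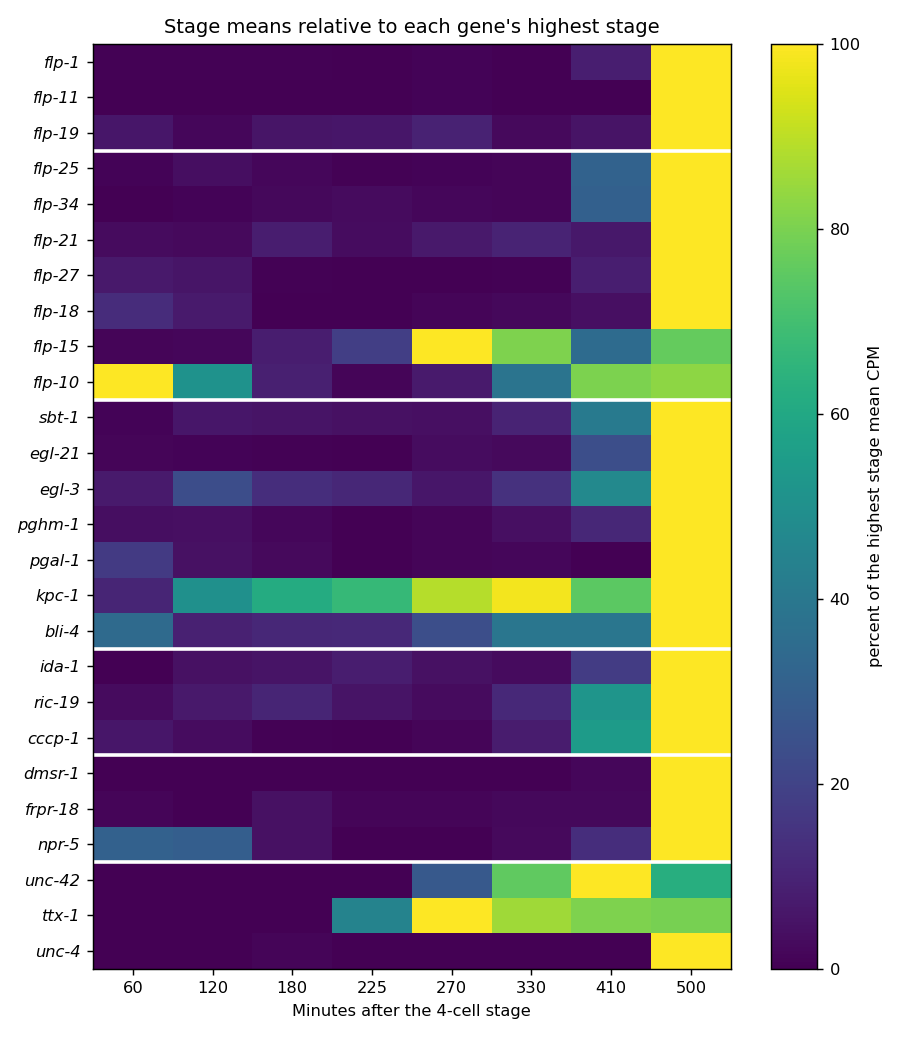
Mean level at each of the 8 stages as a percentage of the gene's highest stage mean CPM, for the 3 flp genes that were on at 500 min, the 7 other tested flp genes, and genes of processing, dense core vesicles, receptors and neuron fate, separated by white lines. The genes flp-1, flp-11 and flp-19 have their highest mean at 500 min, whereas unc-42 is highest at 410 min (302.5 CPM) and ttx-1 and flp-15 at 270 min (226 and 87.1 CPM).

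Most of the tested nlp genes, which encode other neuropeptides, were higher too. Of 71 listed, 22 were tested, 18 were higher than at 60 min and 2 lower, and the median change was log2 4.89. With no filter, 32 of 66 were higher and 4 lower. The shares higher over all genes were 46.1% of those tested and 31.7% with no filter. Shares of all genes called lower are not given, so the counts lower are descriptions only. The genes nlp-53, nlp-3 and nlp-57 had 0 counts at 60 min and 115, 67.4 and 63.5 CPM at 500 min. The gene nlp-31, which encodes an antimicrobial peptide of the epidermis, was at 69.6 ± 15.6 CPM at 60 min, between 514 and 558 CPM from 120 to 225 min and at 6.91 ± 4.32 CPM at 500 min (log2 -3.41 between the first and last stage, edgeR adjusted p = 9.73e-08), and nlp-11 fell from 22.9 ± 3.57 to 1.28 ± 1.18 CPM (log2 -3.66, edgeR adjusted p = 3.61e-05).

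Most tested neuron markers rose in the same interval. Of 12 listed genes 9 were tested and 7 were higher at 500 than at 60 min, while snb-1 and unc-119 did not pass. Among all tested genes 46.1% were higher. The synaptic vesicle genes rab-3, whose exons overlap other genes, and snt-1 had 158, 354 and 243 CPM and 60.8, 98.0 and 71.9 CPM in 500 min replicates 1 to 3. The summed level of the 12 markers was lowest in replicate 1 (1458 CPM) and highest in replicate 2 (2221 CPM), and the summed level of the 10 flp genes was also highest in replicate 2 (237, 357 and 236 CPM in replicates 1, 2 and 3). Of the 10 flp genes 6 had their highest 500 min level in replicate 2, 3 in replicate 3 and 1 in replicate 1. The part of neuron content in these differences between replicates was not tested.

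The vitellogenin genes vit-1 to vit-6, known for yolk proteins of the adult intestine, gave different levels between libraries, and no other marker of adult tissue was examined. Their summed level was 6.08, 732 and 475 CPM in the 500 min libraries. All 6 vitellogenin genes were tested, and between 60 and 500 min 0 passed with edgeR, 0 had an unadjusted p under 0.05 and 0 passed with DESeq2. Their summed level ran from 84.2 to 1229 CPM within 60 min alone, so these tests cannot show that the 2 stages were alike. In 500 min replicate 1, with its vitellogenin at the level of a single count, flp-1 was at 91.2 CPM, flp-19 at 60.8 CPM and flp-11 at 48.6 CPM. Without the 4 libraries of highest vitellogenin, which include 500 min replicate 2, these 3 genes were still called higher. The part of adult tissue in the flp levels was not tested.

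The profiles most like those of the 3 tested genes were found by Pearson correlation of log2(CPM + 1) over the 24 libraries, among 6278 genes with at least 20 CPM at 500 min. Points of one stage share a rise at 500 min, so such correlations mostly restate that rise. The closest to flp-11 were nlp-57 (r = 0.996), T07G12.3 (0.994) and M03F8.1 (0.989), of which T07G12.3 and M03F8.1 share exons with another gene. The gene nlp-57 had 11, 52 and 19 counts at 500 min and 2 counts before it, beside 8, 39 and 16 and 1 for flp-11. The closest to flp-1 were F32B4.8, T15D6.12 and W08G11.1 (0.965, 0.964 and 0.963). The closest to flp-19 were less alike, with shk-1 at 0.843, T26C5.3 at 0.823 and madf-1 at 0.813. Exons of T26C5.3 overlap other genes, and it had 627 counts before 500 min, beside 9 for shk-1 and 12 for madf-1. The potassium channel gene shk-1 stood at 148 ± 10.2 CPM at 500 min.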

How the data were processed

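Poly(A) RNA of staged N2 embryos was measured by CEL-Seq in 24 libraries. The authors deposited raw gene counts and used HTSeq, per the submitters' processing notes. Aligner, genome build and counting strand: not given in the sources used here. The table held 20779 entries, of which 92 were spike-ins, left out of library sizes and tests. They made up 2.36 to 10.2% of counts. No deposited count exceeded 1023, close to the 1024 forms of a 5-base molecular identifier, so large counts, and with them library totals, may be compressed; the labels do not state such counting. The highest count among the 10 flp genes was 76. Coordinates came from the WBcel235 annotation, matched by identifier.

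Tests used edgeR 4.0.16 (R 4.3.3) on the 8279 genes that passed filterByExpr with a minimum count of 10 and a minimum total of 15. Libraries were scaled by TMM (factors 0.78 to 1.171), and all 24 libraries entered 1 robust quasi-likelihood fit with the 8 stages as its terms (16 residual degrees of freedom). Tests were two-sided, adjusted by Benjamini and Hochberg over all tested genes, and passed below 0.05. Ratios of summed counts have exact 95% intervals, and folds against 0 counts use a floor of 3 counts summed over the stage. Both cover counting error only.

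The 10 genes, the gene lists and the alternatives were chosen with earlier results of these data known. Of each list, up to 3 genes higher and 2 lower with the largest change were named, if they passed, had no overlap between the 60 and 500 min libraries and reached 20 CPM. All tested flp genes were also open to naming. The genes egl-3, pgal-1, pamn-1, unc-31, aptf-1, fax-1, frpr-7, snb-1 and unc-119 were named outside this rule, after their values were seen. Same-numbered libraries of 410 and 500 min had weak positive correlations of deviations from the stage means (0.205, 0.137 and 0.103). Libraries with different numbers were not compared, so these values do not show a pairing. A replicate block kept 3 genes higher from 410 to 500 min. Alternatives were DESeq2 1.42.0, other scalings and filters, a correction for identifier collisions, the replicate block and libraries left out. Protein and promoter sequences were not analysed here.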

Additional observations from a re-analysis of the deposited data

How the results depend on the processing

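The genes flp-1, flp-11 and flp-19 were higher at 500 than at 60 min in each of 19 alternatives, with log2 changes of 5.92 to 8.41, 6.99 to 7.72 and 3.33 to 4.52 and a highest adjusted p of 5.86e-06, 0.00653 and 0.000316. The count of the 10 genes called higher was 3 as reported, 5 with DESeq2, 5 with a filter of over 10 CPM in 3 libraries and 7 with no filter. The count changing over the 8 stages was 3 as reported, 6 with no filter, 5 with the 10 CPM filter and 4 with DESeq2. These filters test more genes, 10004 and 17522 against 8279. Leaving out libraries gave 3 to 3 for the counts against 60 min, against 410 min and over the 8 stages. Those fits kept the 8279 genes chosen with all 24 libraries, so at most 3 of the 10 could be called. Pathway genes higher at 500 than at 60 min numbered 51 of 59 tested as reported, against 46.1% of all tested genes. They numbered 45 with spike-in scaling and 47 to 52 with libraries left out. With more genes tested they numbered 66 with the 10 CPM filter, 68 with DESeq2 and 89 with no filter. The shares over all genes in those fits were 45.6%, 37.7% and 31.7%. The lists held 179 genes, but each of these fits tested fewer, and even the no-filter fit left out those with no count. The number of listed genes tested in each is not given, so the counts cannot be read as shares of 179.

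From 410 to 500 min, DESeq2 called 2 of the 10 genes, with flp-11 at log2 6.26 and adjusted p = 0.0501, and the cause was not tested. The correction for identifier collisions gave 3 and 51 genes higher than at 60 min. With the replicate block 3 of the 10 genes and 51 pathway genes were higher than at 60 min, with no call changed in any list. From 410 to 500 min it added unc-108 (adjusted p = 0.0499), cog-1 (0.0121), snb-1 (0.0329) and unc-42 (0.0312, lower), and changed no call of the 10 genes. Between 60 and 500 min the correlations of same-numbered libraries were 0.055, -0.03 and 0.019, with no comparison of differently numbered ones. The 330 to 410 min step of flp-1 and the no-filter fits with 1 library left out were alternatives chosen after seeing the data. Without replicate 2 that step no longer passed (log2 3.93, adjusted p = 0.108). At 500 min replicate 1, 1 count was 6.08 CPM, which limits what can be said of genes with few counts.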
